A study of Mus musculus with 10 samples.

Results

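The genes described here make and cut the amyloid precursor protein, with Thy1 added to them. They are App, its paralog Aplp2, the secretase genes Bace1, Adam10, Psen2, Ncstn, Aph1a and Psenen, and Thy1, which is 9 of the 24421 gene symbols in the count files. They were chosen by symbol with their levels in these same libraries (CPM) already seen, so their levels and the differences between groups are given as a description without a test. RNA was sequenced from microglia isolated from mouse cortex at 9 months of age, in 3 libraries of WT mice, 4 of APP/PS1 mice and 3 of APP/PS1 mice given N-AS (N-acetyl sphingosine). N-AS was injected under the skin each day at a dose of 30 mg/kg, beginning at 7 months and lasting 8 weeks. The study describes the APP/PS1 mice without N-AS as given vehicle, which the library titles do not mention. The APP/PS1 mice, with or without N-AS, overexpress human APP with the Swedish mutation together with the other transgene of the line. The study's methods name neither the promoter of these transgenes nor a way to separate human from mouse transcripts, and a read of the human transgene that aligned to mouse App cannot be told apart in a count. Each library was a pool of 2 mice, prepared by papain dissociation and density gradient centrifugation without a sort on a surface marker.

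Libraries held 8805804 to 19432075 counted reads, and 18727 genes, including all 9 described here, passed the filter on low counts. The methods state that male mice were used, but Xist, the RNA of the inactive X chromosome, was counted 33 to 37 times per WT library but 5253 to 11188 times per APP/PS1 library. Among N-AS libraries it was mixed, with 7024, 8848 and 29 reads in replicates 1, 2 and 3. Sex and genotype therefore cannot be told apart in APP/PS1 against WT, and only N-AS replicate 3 joins the transgenic genotype with an Xist count like that of WT. In N-AS against APP/PS1, that library differs in Xist from every APP/PS1 library, so this comparison is not free of a difference in Xist either. The libraries were not of microglia alone. All 14 microglia markers were detected in every library, with a summed level of 881 to 1289 CPM (counted reads scaled to the same library total) in WT, 2725 to 3420 CPM in APP/PS1 and 1696 to 2197 CPM in N-AS libraries, and none of 10 neuron markers was at 0 in any library. In such bulk samples, fewer cells of a type and less RNA per cell cannot be told apart.

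App is a membrane protein that the alpha-secretase Adam10 and the beta-secretase Bace1 cut at different sites outside the membrane. The remaining stub is cut inside the membrane by gamma-secretase, a complex in which Psen2 can be the catalytic subunit, with Ncstn, an Aph1 protein and Psenen, and the product after the Bace1 cut is amyloid-beta. Neurons make most App and Bace1 in the brain, whereas microglia take up amyloid-beta and use Adam10, Adam17 and gamma-secretase on receptors of their own. Thy1 is a surface glycoprotein of neurons and T cells, and its regulatory sequence is used to drive many neuronal transgenes.

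The stretch of mouse App that these enzymes cut is given here because it places the members on the same molecule. It was read 5′ to 3′ from GENCODE M21, where 5 protein-coding App transcripts held the same 174 bases, and the capitals mark the codons on both sides of each cut. From the start of the amyloid-beta coding sequence, the first capitals span the Bace1 cut before codon 1, the next the Adam10 cut after codon 16, and the last the gamma-secretase cuts after codons 40 and 42.
App amyloid-beta region, mouse coding strand: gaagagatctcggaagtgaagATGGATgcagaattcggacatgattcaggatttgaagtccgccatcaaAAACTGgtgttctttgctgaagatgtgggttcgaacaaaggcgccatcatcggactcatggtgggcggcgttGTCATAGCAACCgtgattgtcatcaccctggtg

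Mouse App lies on the reverse strand of chr16:84949685-85173766 in GRCm38. Aplp2 at chr9:31149557-31211815 is also on the reverse strand, while Bace1 at chr9:45838580-45864399, Adam10 at chr9:70678997-70780229 and Thy1 at chr9:44043384-44048579 are on the forward strand. Psen2 at chr1:180227004-180263438, Ncstn at chr1:172066013-172082795 and Psenen at chr7:30561863-30563627 are on the reverse strand, and Aph1a at chr3:95893969-95898288 is on the forward strand. All are protein-coding genes. Several share ends with a gene on the opposite strand, such as Ncstn with Copa over 267 bases, Bace1 with Rnf214 over 975 bases, Aph1a with Car14 over 521 bases and Psenen with U2af1l4 over 327 bases. Whether strand was used in counting is not given in the sources used here, so reads of these overlaps may belong to either gene.

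App transcripts were abundant in every library, and less so in the APP/PS1 libraries. The level was 1406, 1707 and 1753 CPM in the 3 WT libraries, and 1394, 1235, 1068 and 1300 CPM in the 4 APP/PS1 libraries. It was 1371, 1350 and 1512 CPM in the 3 N-AS libraries. Each APP/PS1 library was below each WT library, although the highest APP/PS1 and the lowest WT library were close, and the N-AS libraries overlapped both groups. The mean was 1622 ± 188 CPM in WT (SD, n = 3), 1249 ± 137 CPM in APP/PS1 (SD, n = 4) and 1411 ± 87.7 CPM in N-AS libraries (SD, n = 3). The fitted log2 fold change was −0.38 (SE 0.17) for APP/PS1 against WT and 0.18 (SE 0.17) for N-AS against APP/PS1. No library of APP/PS1 mice thus held a higher App level than the highest WT library, with the human transgene present in the animals.

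Bace1, the beta-secretase, followed App closely. WT libraries had 47.7, 52.6 and 57.1 CPM, whereas APP/PS1 libraries had 47.6, 43.2, 34.3 and 42.2 CPM. N-AS libraries had 48.8, 45.6 and 47.8 CPM. The highest APP/PS1 value lay just under the lowest WT value, and the N-AS values lay within the range of the other groups. The log2 fold change was −0.33 (SE 0.13) for APP/PS1 against WT and 0.18 (SE 0.13) for N-AS against APP/PS1. Across the 10 libraries the log2 levels of App and Bace1 had a Pearson r of 0.95, the highest among the pairs of the 9 genes, and both were lowest in APP/PS1 replicate 3. These points share their libraries, their groups and a common scaling.

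Markers of other cells were set beside App and Bace1. The summed level of 10 oligodendrocyte markers was 2472 to 7156 CPM in WT, 1980 to 4777 CPM in APP/PS1 and 2942 to 4023 CPM in N-AS libraries, and all 10 had a negative log2 fold change in APP/PS1 against WT, with 3 of 10 past an adjusted p of 0.05 in edgeR's quasi-likelihood test. The summed neuron markers ranged over 1670 to 5337 CPM in WT, 2164 to 2574 CPM in APP/PS1 and 2208 to 3123 CPM in N-AS libraries, and none of the 10 passed. For 10 astrocyte markers the sums were 2456 to 2898, 2642 to 4208 and 2494 to 3591 CPM in the same order, and 2 passed, both higher in APP/PS1. For 10 endothelial markers they were 551 to 1493, 1158 to 1276 and 1049 to 1196 CPM, and 0 passed. Within WT and within N-AS libraries, the neuron sums had the same order as App. WT replicate 3 had the highest App and Bace1 levels and the highest neuron sum (5337 CPM) of all libraries. Its oligodendrocyte sum was the lowest in WT (2472 CPM against 7024 and 7156 CPM). APP/PS1 replicate 3, lowest in App and Bace1, had the lowest neuron sum of its group (2164 CPM) and the lowest oligodendrocyte sum (1980 CPM). Between groups, WT replicate 1, with the lowest neuron sum (1670 CPM), was above every APP/PS1 library in App. The part of these cells in the App and Bace1 levels was not tested. Aplp1, the neuronal member of the App family, was the gene whose log2 level was most like that of App among all genes tested (Pearson r 0.98 over 10 libraries), ahead of Lrrk2 and Krt9 (both 0.96). The genes most like Bace1 were Pgbd5, Ephb6 and Gprasp2, each with an r of 0.98.

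Aplp2, the App paralog found in most tissues, did not share this pattern. Its levels were 486, 591 and 568 CPM in WT libraries and 522, 540, 559 and 585 CPM in APP/PS1 libraries. In N-AS libraries they were 487, 517 and 560 CPM. The 3 groups overlapped throughout, with a log2 fold change of 0.01 (SE 0.15) in APP/PS1 against WT and −0.08 (SE 0.15) in N-AS against APP/PS1. The ratio of App to Aplp2, both per kilobase of exon, was 1.33 ± 0.05 in WT, 1.02 ± 0.14 in APP/PS1 and 1.22 ± 0.05 in N-AS libraries (SD). Every WT ratio, from 1.30 to 1.39, was above every ratio of the APP/PS1 libraries (0.86 to 1.20) and of the N-AS libraries (1.17 to 1.27). The size of the ratio rests on the length given to App: with the shortest RefSeq-matched transcripts it was 3.28 ± 0.13, 2.52 ± 0.35 and 3.01 ± 0.12 (SD) in the same order.

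**Figure D1:**
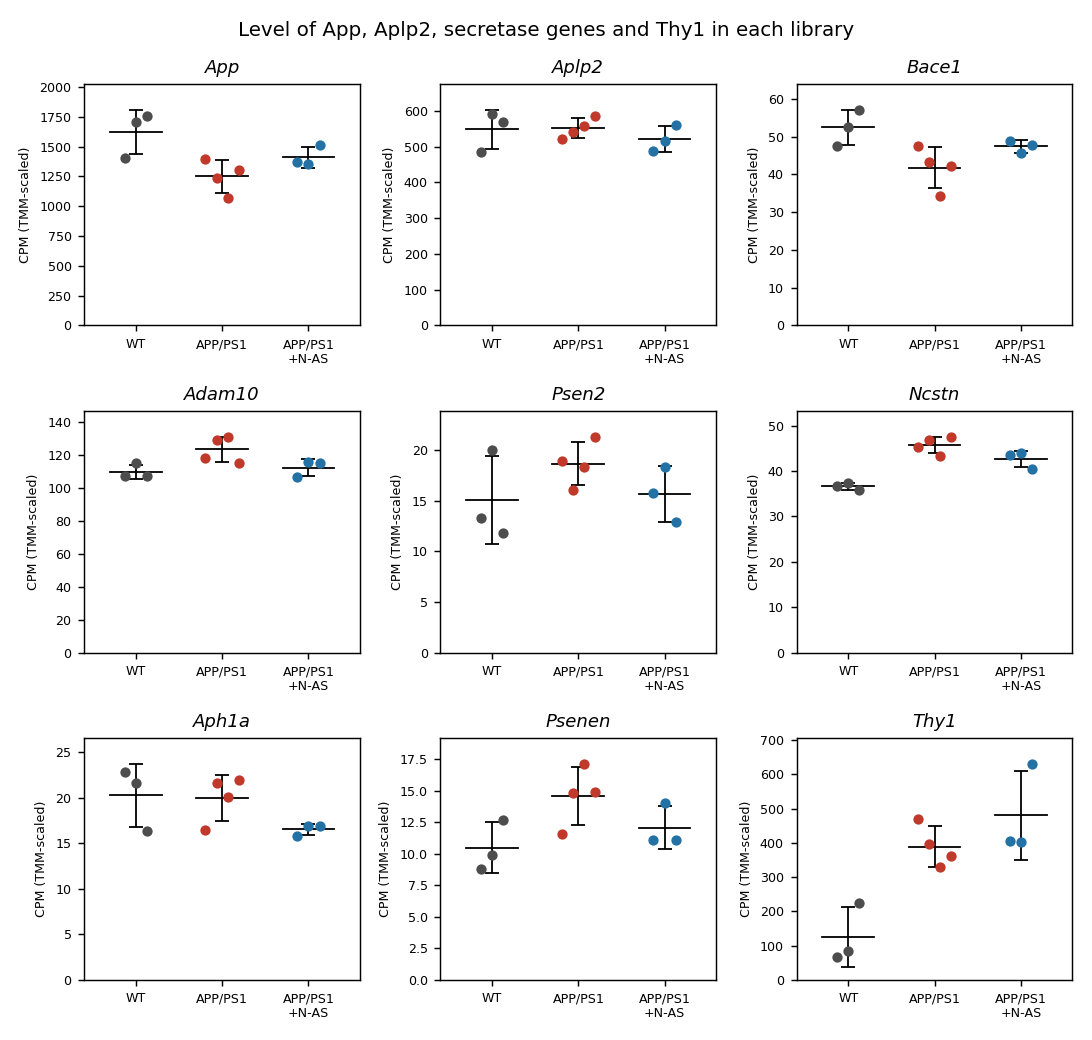
Level of each of the 9 genes in CPM, scaled by TMM (vertical axes from 0), in every WT (grey), APP/PS1 (red) and APP/PS1+N-AS (blue) library, with the mean and SD as black bars. App and Bace1 are lower, and Ncstn, Adam10 and Thy1 higher, in all APP/PS1 libraries than in all WT libraries, and WT replicate 3 stands above the other WT libraries in Thy1.

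Adam10, the alpha-secretase, was slightly higher in APP/PS1 libraries. Its level was 107, 115 and 107 CPM in WT, and 118, 129, 130 and 115 CPM in APP/PS1 libraries. With N-AS the 3 values were 106, 115 and 115 CPM, over the range of WT. The groups of WT and APP/PS1 did not overlap, but the lowest APP/PS1 library (115.0 CPM) was within 1 CPM of the highest WT library (114.6 CPM). The log2 fold change was 0.17 (SE 0.11) in APP/PS1 against WT and −0.14 (SE 0.11) in N-AS against APP/PS1. Per kilobase, Adam10 transcripts outnumbered those of Bace1. The ratio was 2.77 ± 0.26 in WT, 3.95 ± 0.76 in APP/PS1 and 3.12 ± 0.23 in N-AS libraries (SD). The APP/PS1 ratios (3.27 to 5.02) were all above the WT ratios (2.47 to 2.96). This had to follow, because Adam10 and Bace1 each narrowly separated these groups, in opposite directions. With the shortest RefSeq-matched transcripts the ratios were 1.85 ± 0.18, 2.64 ± 0.51 and 2.08 ± 0.16 (SD) in the same order.

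Ncstn, the large subunit of gamma-secretase that receives its substrates, had the smallest spread of the 9 genes within WT. Its levels were 36.6, 37.3 and 35.9 CPM in WT, and 45.2, 46.9, 43.4 and 47.4 CPM in APP/PS1 libraries. N-AS libraries had 43.6, 43.9 and 40.6 CPM. Both APP/PS1 groups lay wholly above WT, and they overlapped each other. The log2 fold change was 0.32 (SE 0.10) in APP/PS1 against WT, 0.22 (SE 0.10) in N-AS-treated APP/PS1 against WT, and −0.10 (SE 0.10) in N-AS against APP/PS1. The genes with the most similar log2 levels were Cd14 (r 0.98), the lysosomal macrophage protein gene Cd68 (r 0.98) and the inflammasome sensor gene Nlrp3 (r 0.98), which are expressed by myeloid cells. The 14 microglia markers moved the same way: all 14 had a positive log2 fold change in APP/PS1 against WT, 11 of them past an adjusted p of 0.05 by edgeR's test, with a median of 1.39. Their part in the Ncstn level was not tested.

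The other gamma-secretase genes varied more within WT than Ncstn. Psenen, the smallest subunit, which is needed for the complex to mature, had 8.8, 9.91 and 12.7 CPM in WT and 11.6, 14.9, 17.1 and 14.9 CPM in APP/PS1 libraries. In N-AS libraries it had 11.1, 14.0 and 11.1 CPM. The WT and APP/PS1 groups overlapped through WT replicate 3 and APP/PS1 replicate 1, and the log2 fold change was 0.47 (SE 0.18). Psen2, a catalytic subunit found mainly in late endosomes and lysosomes, had 13.3, 20.1 and 11.9 CPM in WT, 18.9, 16.1, 18.4 and 21.3 CPM in APP/PS1 and 15.7, 18.3 and 12.9 CPM in N-AS libraries. These groups overlapped as well, with a log2 fold change of 0.31 (SE 0.20) in APP/PS1 against WT and −0.26 (SE 0.20) in N-AS against APP/PS1. Aph1a, the scaffold subunit, had 22.8, 21.6 and 16.3 CPM in WT and 16.4, 21.6, 20.1 and 21.9 CPM in APP/PS1 libraries. Its 3 N-AS values, 15.8, 16.9 and 16.8 CPM, lay at the low end of the range of the other groups and overlapped both, with a log2 fold change of −0.28 (SE 0.15) against APP/PS1.

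The subunits were also set against each other within a library. Of the summed level of Psen2, Ncstn, Aph1a, Aph1b, Aph1c and Psenen, all per kilobase, Psenen held 32.5% ± 5.9 in WT, 36.7% ± 3.6 in APP/PS1 and 35.2% ± 2.0 in N-AS libraries (SD). Ncstn held 27.8% ± 1.2, 28.3% ± 2.4 and 30.5% ± 1.9 in the same order, and Psen2 held 15.8% ± 4.0, 16.1% ± 2.0 and 15.5% ± 1.7. The share of Aph1a was 15.6% ± 3.0, 12.5% ± 0.95 and 12% ± 0.88, that of Aph1b 5.56% ± 0.35, 4.34% ± 0.17 and 4.42% ± 0.91, and that of Aph1c 2.64% ± 0.74, 2.12% ± 0.32 and 2.46% ± 0.69. The ranges of WT and APP/PS1 overlapped for all of these but Aph1b, at 5.19% to 5.89% in WT and 4.10% to 4.48% in APP/PS1 libraries. The Aph1b level itself overlapped, at 11.9 to 13.2 CPM in WT and 10.8 to 12.8 CPM in APP/PS1 libraries. Its log2 fold change was −0.06 (SE 0.16). A share also falls when the other subunits in the sum are higher. As Psenen has only 708 bases of exon, its share depends on how reads of short transcripts were counted. The order of the shares also rests on the lengths used. With the shortest RefSeq-matched transcripts, Aph1a was at 12.7 CPM per kb in WT, beside Ncstn at 12.6. With all annotated exons, the mean over all libraries was 10.6 CPM per kb for Ncstn, above Psenen at 9.89.

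Thy1 differed most between WT and both APP/PS1 groups. Its level was 66.7, 84.1 and 224 CPM in WT libraries, and 470, 396, 329 and 362 CPM in APP/PS1 libraries. It was 405, 404 and 631 CPM in N-AS libraries. Every APP/PS1 library, with or without N-AS, was above every WT library, and WT replicate 3 and N-AS replicate 3 stood apart as the highest of their groups. N-AS replicate 3, the highest of all libraries in Thy1, is the one with an Xist count like that of WT. The mean was 125 ± 86.5 CPM in WT (SD, n = 3), 389 ± 60.4 CPM in APP/PS1 (SD, n = 4) and 480 ± 131 CPM in N-AS libraries (SD, n = 3). The log2 fold change was 1.63 (SE 0.39) in APP/PS1 against WT, a 3.10-fold higher level, and 1.94 (SE 0.41) in N-AS-treated APP/PS1 against WT, a 3.83-fold higher level. It was 0.30 (SE 0.37) in N-AS against APP/PS1, where the groups overlapped. Without WT replicate 3, the log2 fold change of APP/PS1 against WT was 2.37. Libraries numbered 1 to 6 in the labels and libraries numbered 7 to 10 each hold all 3 groups, and the difference of mean log2 CPM between APP/PS1 and WT was 2.52 in the former and 0.62 in the latter, which include WT replicate 3.

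Markers of the cell types that normally express Thy1 were set beside it. None of 10 neuron markers and none of 10 T cell markers passed an adjusted p of 0.05 in APP/PS1 against WT by edgeR's test. The share of all genes tested that passed was 3.47%. The log2 fold change was negative for 9 of 10 neuron markers, with a median of −0.26, but the direction differed between library sets. In libraries numbered 1 to 6, the neuron sums were 1670 and 1956 CPM in WT and 2481 and 2298 CPM in APP/PS1. In libraries numbered 7 to 10, they were 5337 CPM in WT replicate 3 and 2164 and 2574 CPM in APP/PS1. For T cell markers the log2 fold change was positive for 9 of 10, with a median of 0.43, and Cd8a in APP/PS1 did not overlap WT. The summed T cell markers were 56.8 to 125 CPM in WT, 88.5 to 189 CPM in APP/PS1 and 79.9 to 125 CPM in N-AS libraries. The mean sums were 98.7, 125 and 109 CPM in the same order. Most of this sum was Cd3d, with means of 68.4, 84.4 and 76.3 CPM, whereas Cd3e and Cd3g had group means of 1.42 to 2.94 CPM. WT replicate 3 had the highest summed neuron markers of all libraries, 5337 CPM against 1670 and 1956 CPM in the other WT libraries. Thy1 was therefore also set against the neuron markers of the same library, a ratio chosen after the Thy1 values were seen. Thy1 amounted to 3.99%, 4.30% and 4.21% of the summed neuron markers in the 3 WT libraries. In APP/PS1 libraries the ratio was 18.9%, 17.2%, 15.2% and 14.1%, and in N-AS libraries 18.0%, 18.3% and 20.2%. On this scale the WT libraries lay close together, at 4.17% ± 0.16 (SD), and far below both APP/PS1 groups, at 16.3% ± 2.2 and 18.8% ± 1.2 (SD). The ratio of Thy1 to each single neuron marker showed no overlap for 10 of 10 markers in APP/PS1 against WT. The same held for 10 of 10 in N-AS libraries against WT, with Thy1 on the higher side in each case. All of these ratios share the Thy1 values, which did not overlap on their own, so they are not separate results. Against the summed T cell markers the groups overlapped, because WT replicate 3, with a ratio of 3.95, was above all APP/PS1 libraries (2.49 to 3.88). That ratio rests mainly on Cd3d. The part of neurons and T cells in the Thy1 level was not tested.

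**Figure D2:**
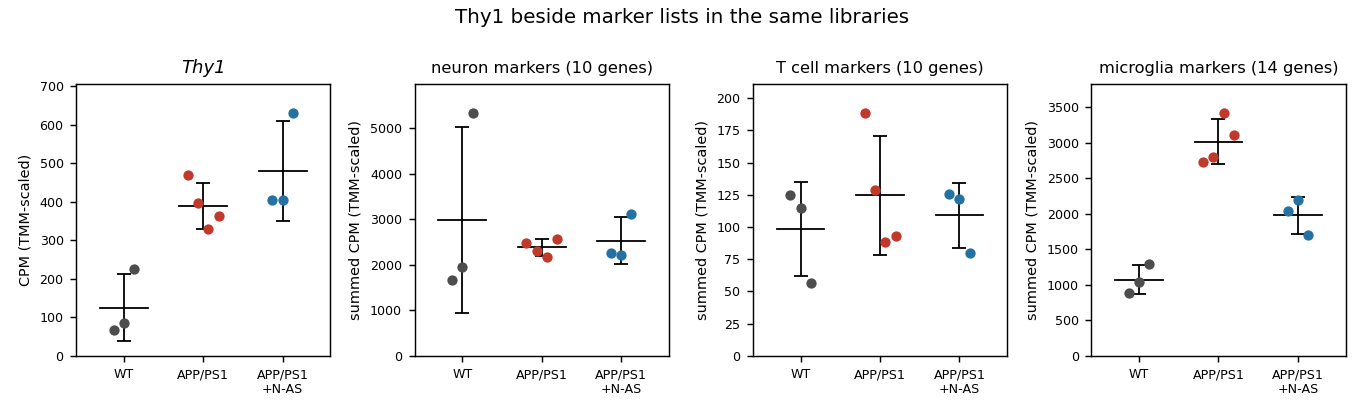
Thy1 level and summed levels of the neuron, T cell and microglia markers in CPM (vertical axes from 0) in every library of the 3 groups, with mean and SD as black bars. Thy1 is above WT in all APP/PS1 libraries, whereas the neuron and T cell sums overlap between groups, and WT replicate 3 is highest in neuron markers at 5337 CPM.

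The genes most like Thy1 in log2 level over the 10 libraries were 4930533B01Rik (r 0.96), Ddost (r 0.93) and Ptgfrn (r 0.93). For the remaining members the nearest gene was Pcmtd1 for Aplp2 (r 0.94), Rap1b for Adam10 (r 0.95), Tnni3 for Psen2 (r 0.95), Apol11b for Aph1a (r 0.95) and Smcr8 for Psenen (r 0.97). Each was picked as the closest of all tested genes, so high values were bound to occur. Among the 9 genes, App was opposed to Ncstn (r −0.71), Adam10 (r −0.68) and Psenen (r −0.64), and Bace1 was opposed to Adam10 (r −0.76). Thy1 went with Ncstn (r 0.71) and not with App (r −0.37).

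The members were then set against all genes. In APP/PS1 against WT, 1 of the 9 members (Thy1) was past an adjusted p of 0.05, where 3.47% of all genes tested were, and this call was lost when any of these libraries other than WT replicate 3 was left out. The groups did not overlap for 5 of the 9 (App and Bace1 lower, Adam10, Ncstn and Thy1 higher), compared with 14.9% of all genes tested. The median log2 fold change was 0.17 over the 9 members and −0.07 over all genes. In N-AS against APP/PS1, 0 of the 9 were past the threshold and 0% of all genes tested were, although 1653 genes had an unadjusted p under 0.05 in edgeR and DESeq2 called 79. All 9 members overlapped between these groups, while 12.7% of all genes did not, and the median log2 fold change was −0.10 over the members and −0.01 over all genes. In N-AS-treated APP/PS1 against WT, 0 of the 9 members and 0.187% of all genes passed the threshold, 1 member (Thy1) passed it in DESeq2, and Ncstn and Thy1 did not overlap, compared with 8.81% of all genes. The median was 0.03 over the members and −0.04 over all genes. Since the members were listed with these levels known, the shares are given for reference only. The 3 comparisons share groups, so their values are not independent.

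**Figure D3:**
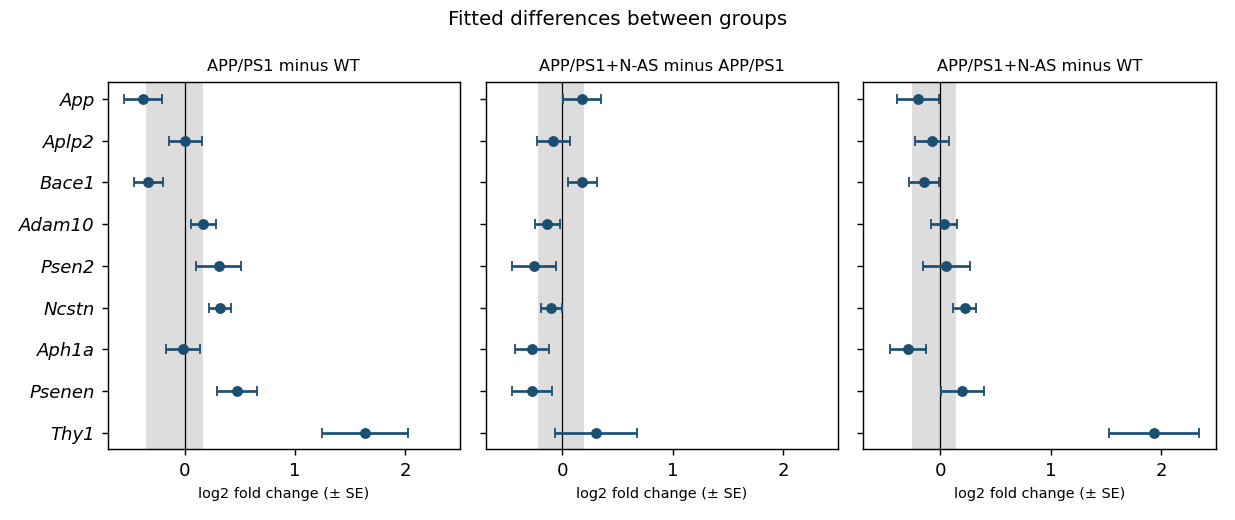
Fitted log2 fold change (horizontal axis) with SE for the 9 genes in the 3 comparisons, with the middle 50% of all genes tested as a grey band. Thy1 stands at 1.63 and 1.94 in the comparisons with WT and at 0.30 in N-AS against APP/PS1, and the other 8 genes lie between −0.38 and 0.47.

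Levels of different genes were compared per kilobase of exon, using the exons of transcripts matched to RefSeq. In WT the order was App (199 ± 23.1 CPM per kb), Aplp2 (149 ± 15.0), Thy1 (72.1 ± 49.9), Adam10 (23.8 ± 0.96), Psenen (14.8 ± 2.9), Ncstn (12.6 ± 0.25), Bace1 (8.66 ± 0.78), Psen2 (7.23 ± 2.1) and Aph1a (7.08 ± 1.2), each with the SD over 3 libraries. Psenen and Ncstn, Bace1 and Psen2, and Psen2 and Aph1a overlapped, and the other neighbours did not. In APP/PS1 libraries Thy1 came first at 224 ± 34.8 CPM per kb, above App at 153 ± 16.8 and Aplp2 at 150 ± 7.4 (SD), which overlapped each other. In N-AS libraries Thy1 was at 277 ± 75.3, App at 173 ± 10.7 and Aplp2 at 142 ± 10 CPM per kb (SD), without overlap.

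The place of Thy1 before App rests on the length given to App, whose RefSeq-matched transcripts run from 3120 to 8167 bases. With the shortest such transcript of each gene, App was at 452 CPM per kb over all 10 libraries, above Thy1 at 194 and Aplp2 at 156. Over the same libraries and with all RefSeq-matched exons, App was at 173 CPM per kb. The order among Psenen, Ncstn, Psen2, Bace1 and Aph1a also depended on the lengths used.

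**Figure D4:**
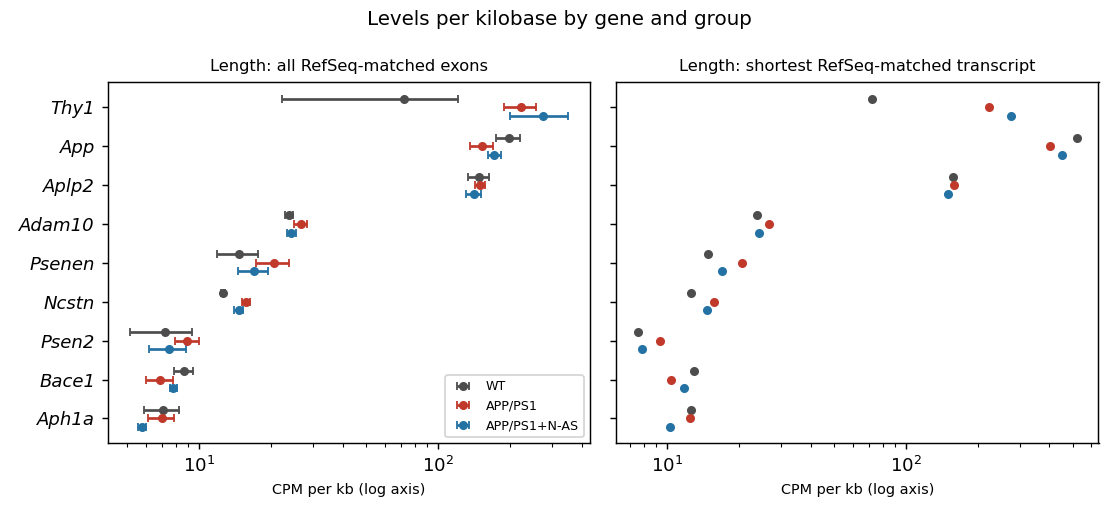
Mean level per kilobase of exon (log axis) of the 9 genes in each group, with SD in the left panel, using all exons matched to RefSeq (left) or the shortest such transcript (right). Thy1, App and Aplp2 lie well above the secretase genes. App is above Thy1 in WT with either length, and in both APP/PS1 groups only with the shorter length.

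Of the 9 members, 7 had a promoter entry in the RefSeq table of GRCm38.p6. The 250 bases before the start site are shown 5′ to 3′ for App, which was lower in APP/PS1 libraries, and for Adam10 and Ncstn, which were higher, to set genes that moved in opposite directions side by side. Capitals mark the GC box, GGGCGG on either strand.
App, chr16:85173708-85173957 (- strand): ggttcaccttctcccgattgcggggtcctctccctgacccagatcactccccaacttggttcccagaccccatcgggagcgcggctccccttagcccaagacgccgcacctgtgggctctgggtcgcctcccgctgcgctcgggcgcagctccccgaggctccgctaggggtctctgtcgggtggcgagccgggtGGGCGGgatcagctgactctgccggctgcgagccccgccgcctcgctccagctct
Adam10, chr9:70678732-70678981 (+ strand): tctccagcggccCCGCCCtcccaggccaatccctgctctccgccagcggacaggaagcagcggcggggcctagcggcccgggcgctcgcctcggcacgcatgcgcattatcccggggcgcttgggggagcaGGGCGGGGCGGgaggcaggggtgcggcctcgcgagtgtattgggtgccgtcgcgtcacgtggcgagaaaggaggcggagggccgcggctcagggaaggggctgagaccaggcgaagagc
Ncstn, chr1:172082750-172082999 (- strand): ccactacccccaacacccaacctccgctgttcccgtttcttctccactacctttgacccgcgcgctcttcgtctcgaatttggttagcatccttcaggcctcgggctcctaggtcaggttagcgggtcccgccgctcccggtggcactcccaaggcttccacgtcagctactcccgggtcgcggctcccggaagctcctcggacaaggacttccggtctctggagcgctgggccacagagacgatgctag

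In the full 300 bases, which reach 50 bases past the start site, App held 1 GC box and Adam10 held 3, a pair of which overlap. Ncstn held 0. The GC box was present in 35.7% of 32851 mouse promoters of that length. The E-box CACGTG, present in 7.15% of all promoters, was found in Adam10 and not in App or Ncstn. The letters TATAAA, present in 13.6%, were found in none of the 3. Aplp2 held 4 GC boxes, Psen2 held 4 and 0 in its 2 entries, Aph1a held 1 and Psenen 0 in both of its entries. A match of these letters is a description of the sequence and not a bound site.

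Other genes of the pathway were drawn from 4 lists with 68 genes in all, and they were compared between groups by edgeR's quasi-likelihood test, with the Benjamini-Hochberg adjustment taken over all genes. In APP/PS1 against WT, 5 of 68 passed an adjusted p of 0.05, all of them higher, and the median log2 fold change was 0.00. Of all genes tested 3.47% passed, with 500 of these 649 higher. Among 7 other secretase subunits and sheddases none passed. Adam17, the sheddase of Tnf, was at 36.0 to 44.3 CPM in WT, 51.6 to 67.4 CPM in APP/PS1 and 44.6 to 53.2 CPM in N-AS libraries, with a log2 fold change of 0.53 (SE 0.13, adjusted p = 0.0573). Aplp1 was at 379 to 518 CPM in WT and 234 to 332 CPM in APP/PS1 libraries, with a log2 fold change of −0.68 (SE 0.18, adjusted p = 0.0653), and N-AS libraries lay between at 333 to 415 CPM. Bace2, the Bace1 paralog, was low in all groups (4.14 to 8.91 CPM), with a log2 fold change of 0.16 (SE 0.28, adjusted p = 0.826).

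Of 18 partners and regulators of the secretases, such as tetraspanins and reticulons, only Gsap passed in APP/PS1 against WT. Gsap, whose product has been described as an activator of gamma-secretase, rose from 10.7 to 15.1 CPM in WT to 22.4 to 41.8 CPM in APP/PS1 libraries (log2 fold change 1.20, SE 0.22, adjusted p = 0.0145). None of 20 adaptors and sorting proteins of App passed, with log2 fold changes between −0.34 and 0.31 in APP/PS1 against WT. Of 23 secretase substrates, 4 rose, and these are proteins of microglia and macrophages that are shed from the surface or cut in the membrane. Trem2, a lipid receptor, rose by 3.36 on the log2 scale (SE 0.29, adjusted p = 0.000379), and the cytokine Tnf by 2.24 (SE 0.48, adjusted p = 0.0308). Csf1r, the receptor for Csf1 and itself among the 14 microglia markers, rose by 1.32 (SE 0.19, adjusted p = 0.00475), and the interleukin-6 receptor Il6ra by 0.77 (SE 0.16, adjusted p = 0.0294). With each library of the comparison left out in turn, Trem2 and Csf1r stayed past the threshold, Gsap lost its call without WT replicate 1, Tnf kept its call only without APP/PS1 replicate 4, and Il6ra only without APP/PS1 replicate 1. These genes moved together with the microglia markers, whose part in them was not tested. The neuronal substrates in the list, such as L1cam, Sez6 and Scn2b, did not pass.

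In N-AS against APP/PS1, 0 of 68 pathway genes and 0% of all genes tested passed in edgeR's test, and DESeq2 called only Trem2 of the 68. Trem2 was at 105 to 170 CPM in APP/PS1 and 36.8 to 75 CPM in N-AS libraries, without overlap, with a log2 fold change of −1.20 (SE 0.26, adjusted p = 0.478 by edgeR). Against WT, in which Trem2 was at 10.3 to 16.6 CPM, it was the only one of the 68 past the threshold in N-AS libraries (log2 fold change 2.15, SE 0.29, adjusted p = 0.0187 by edgeR). That call was lost without WT replicate 1 or 2 and without N-AS replicate 1 or 2, and with only the 2 groups compared.

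**Figure D5:**
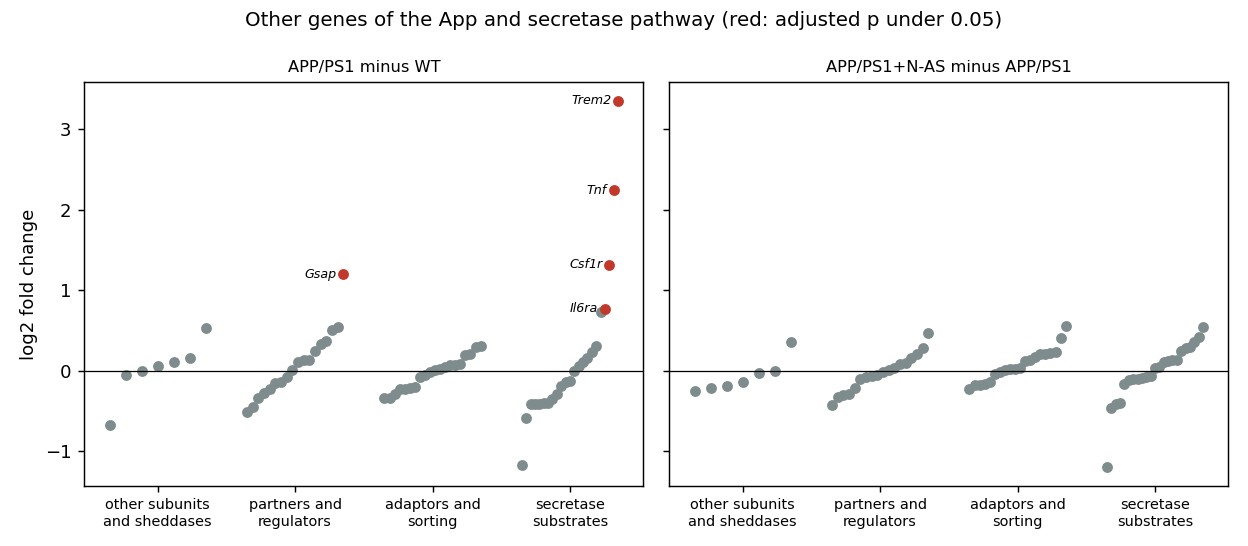
Log2 fold change (vertical axis) of each of the 68 other pathway genes, ordered within its list, in APP/PS1 against WT (left) and N-AS against APP/PS1 (right), with genes past an adjusted p of 0.05 in red. The 5 red genes, Trem2, Tnf, Csf1r, Gsap and Il6ra, are all higher in APP/PS1, and none is red on the right.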

How the data were processed

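Counts of reads per gene were deposited by the authors as whole numbers without normalization, 1 file per library. The libraries were stranded, made after ribosomal RNA depletion and sequenced as paired ends, and the submitters' processing notes name TopHat, edgeR and mm10. Versions are not given in the sources used here. Of 24481 lines, 103 shared 43 symbols and were summed. Genes were filtered with filterByExpr and scaled by TMM, and the 3 groups were fitted together in edgeR 4.0.16 under R 4.3.3 with the quasi-likelihood test, with no covariate. The Benjamini-Hochberg adjustment covered 18727 genes, and the threshold was 0.05. CPM used TMM-scaled totals, and log2 CPM a prior count of 2. DESeq2 1.42.0, other scalings, filters and covariates, and each library left out were the alternatives. The fits were tested on simulated data. The 9 genes, the pathway and marker lists and the choice of named genes (the members, pathway genes past the threshold, Bace2, Adam17 and Aplp1, and the 3 genes most like each member) were made with earlier results of these data known. A further gene under that rule is not reported here. Exon lengths came from GENCODE M21 (GRCm38). Nothing in the labels states how pools were formed, so p-values measure the spread between pools of mice. Totals of 8805804 to 19432075 reads give Psenen, with the lowest mean CPM of the 9, 74 to 313 reads in a library.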

Additional observations from a re-analysis of the deposited data

How the results depend on the processing

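The 27 differences of the 9 members kept their sign in 24 cases under every alternative tried. The exceptions were Aplp2 (−0.07 to 0.07) and Aph1a (−0.14 to 0.08) in APP/PS1 against WT, and Psen2 (−0.10 to 0.33) in N-AS-treated APP/PS1 against WT. The Thy1 log2 fold change in APP/PS1 against WT ran from 1.33 to 2.37. Thy1 was past the threshold only in part of the settings, so that 0 members were called with total counts only, with the replicate block or with only the 2 groups compared, and 2 (Thy1 and Ncstn) with DESeq2. Leaving out 1 library gave 0 to 1 members, with 1 only without WT replicate 3 (log2 fold change 2.37), and in N-AS-treated APP/PS1 against WT 0 to 1, again with 1 only without WT replicate 3 (2.67). DESeq2 called 1 member there.

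Among all genes, 649 were called in APP/PS1 against WT, 1362 by DESeq2, 326 with the replicate block, 1055 with library numbers as a covariate, 410 with only the 2 groups compared, and 299 to 923 with 1 library left out (299 without APP/PS1 replicate 3 or 4, 319 without WT replicate 1, 362 without WT replicate 2, 430 without APP/PS1 replicate 2). For N-AS-treated APP/PS1 against WT the 35 calls became 187, 5, 64 and 2 in the same order, and 1 to 116 with 1 library left out (116 without N-AS replicate 3, 57 without WT replicate 3, and 1 to 5 without each of the other 4). In N-AS against APP/PS1, 0 became 79 with DESeq2 and 0 to 1 with 1 library left out. Of the 68 pathway genes, the 5 called in APP/PS1 against WT became 10 with DESeq2 and 9 with library numbers as a covariate, and 2 to 5 with 1 library left out (2 without WT replicate 1, and 3 without WT replicate 2, APP/PS1 replicate 2 or APP/PS1 replicate 3). In N-AS-treated APP/PS1 against WT, 1 became 3 with DESeq2, 2 with library numbers as a covariate and 0 with only the 2 groups compared, and 0 to 2 with 1 library left out (2 without WT replicate 3). In N-AS against APP/PS1, DESeq2 called 1. The cause of these shifts was not tested, except that leaving out libraries leaves fewer samples.

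Deviations from the group means were correlated between libraries of different groups. With the same replicate number, r was −0.49 to 0.44 over 9 pairs (mean 0.13), against −0.57 to 0.58 over 24 others (mean −0.05). With so few pairs and such wide ranges, these values cannot tell whether the numbers mark pairs. The block left 5 pathway genes called in APP/PS1 against WT, the same 5 genes, and 1 in N-AS-treated APP/PS1 against WT, where it called Tnf (log2 fold change 1.78) and no longer Trem2. No member value in the 4 APP/PS1 libraries stood apart from the other 3 by Dixon's test, and groups of 3 were not tested.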
